A study of Homo sapiens with 4 samples.

Results

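The miRNAs described here are 10 mature products of a cluster of hairpins on the X chromosome: hsa-miR-188-5p, hsa-miR-188-3p, hsa-miR-362-5p, hsa-miR-362-3p, hsa-miR-500a-3p, hsa-miR-501-3p, hsa-miR-502-3p, hsa-miR-532-5p, hsa-miR-532-3p and hsa-miR-660-5p. They were chosen by name as miRNAs hosted together in the gene CLCN5, and all 10 were among the 2656 mature miRNAs listed. The study counted small RNAs in RD cells, a human cancer line established from an embryonal rhabdomyosarcoma, a muscle-like tumour. The EVEN and the ODD libraries came from native pull-downs with separate sets of biotinylated antisense probes against exon 2 of HIPK3, the exon that forms the circular RNA circHIPK3. The LacZ library came from a pull-down with probes against a bacterial mRNA that these cells do not make, and the input library from the lysate. Cells received no treatment, and each of the 4 groups is 1 library from 1 biological replicate. Exon 2 is also part of linear HIPK3 mRNA, and the recovery of circHIPK3 by the probes was not analysed here.

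A miRNA hairpin is released from its host transcript by Drosha and then by Dicer, which leaves a duplex of a 5p and a 3p arm. One arm is usually kept by an Argonaute protein, and its seed (bases 2 to 8) pairs with target RNAs. The members share a host gene, CLCN5, which encodes a chloride and proton exchanger best known for its loss in Dent disease of the kidney. Hairpins of 1 host transcript can be made together, while each mature arm is loaded and turned over on its own. In mouse, miR-501 has been linked to activated muscle progenitor cells.

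The mature sequences of the members are given first because their likeness decides how reads can be assigned and which members share a seed. They are RefSeq sequences on GRCh38.p14, available for 9 of the 10 members, written 5′ to 3′ with the seed in capitals.
hsa-miR-532-5p: cAUGCCUUgaguguaggaccgu
hsa-miR-532-3p: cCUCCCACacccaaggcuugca
hsa-miR-188-5p: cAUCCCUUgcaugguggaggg
hsa-miR-188-3p: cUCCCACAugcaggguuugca
hsa-miR-362-5p: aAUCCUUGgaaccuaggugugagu
hsa-miR-362-3p: aACACACCuauucaaggauuca
hsa-miR-500a-3p: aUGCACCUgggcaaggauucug
hsa-miR-501-3p: aAUGCACCcgggcaaggauucu
hsa-miR-502-3p: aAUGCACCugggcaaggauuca

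Within the cluster, miR-501-3p and miR-502-3p have the same seed, and miR-500a-3p carries it shifted by 1 base. Over their ungapped overlap, miR-500a-3p differs from each of miR-501-3p and miR-502-3p at 1 of 21 bases, and these last differ from each other at 2 of 22. How reads matching more than 1 miRNA were assigned is not stated in the sources used here, and the division of reads among these near copies is uncertain. Another related pair is miR-188-3p and miR-532-3p, which differ at 4 of 21 overlapping bases.

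The 8 hairpins lie on the plus strand of chromosome X within 11.5 kb, from 50003148 to 50014683 on GRCh38. In GENCODE release 29 every hairpin is in an intron of all 3 CLCN5 transcripts that span it, after exon 3 or, in 1 of them, after exon 2. MIR532 (50003148 to 50003238) and MIR188 (50003503 to 50003588) form the upstream pair. MIR500A (50008431 to 50008514), MIR362 (50008964 to 50009028), MIR501 (50009722 to 50009805) and MIR500B (50010672 to 50010750) lie in the middle, and MIR660 (50013241 to 50013337) and MIR502 (50014598 to 50014683) downstream.

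**Figure D1:**
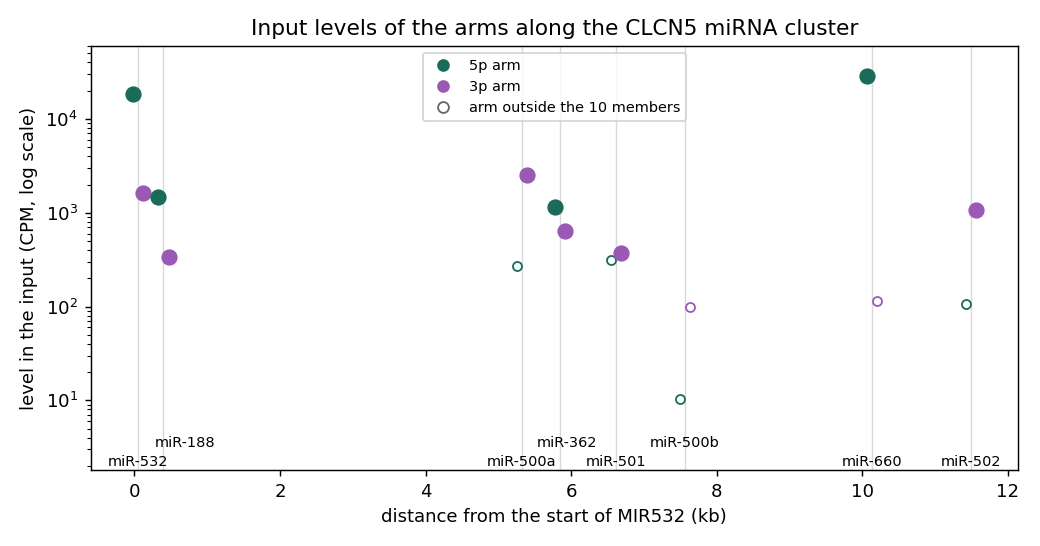
Level in the input library (CPM, log axis) of each mature arm against the distance of its hairpin from the start of MIR532 (kb), with 5p arms in green, 3p arms in purple and open circles for arms outside the 10 members. The arms of a hairpin are drawn beside its line. The 5p arms of miR-660 and miR-532, at 28493 and 18471 CPM, lie far above the arms of all other hairpins.

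The libraries held 98950 miRNA reads for EVEN, 426450 for ODD, 425395 for LacZ and 2987858 for the input. Levels are given as CPM, reads scaled to a common total of miRNA reads, and 0 reads allow up to 30.3 CPM in EVEN, 7.03 in ODD, 7.05 in LacZ and 1.00 in the input (3 reads of the total). With 1 library per group no difference has a replicate check. Intervals are 95% exact intervals for counting error only, and reads without collapsed molecular identifiers are not independent molecules. The 4 skeletal muscle miRNAs miR-206, miR-1-3p, miR-133a-3p and miR-133b had 42097, 13995, 5012 and 1021 CPM in the input, while liver, neuronal, blood and epithelial markers (miR-122-5p, miR-124-3p, miR-451a, miR-142-3p and miR-200c-3p) had 0 to 30.1 CPM. miR-142-3p, a marker of white blood cells, had 131 CPM in EVEN from 13 reads, 9.38 in ODD, 21.2 in LacZ and 6.02 in the input, and its part in the results was not tested.

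Together the 10 members took 1.38% of the miRNA reads of the EVEN library (95% interval 1.31 to 1.46), 0.559% of ODD (0.537 to 0.582), 2.88% of LacZ (2.83 to 2.93) and 5.62% of the input (5.59 to 5.64). The cluster's share was thus lower in every pull-down than in the lysate, and lower with both circHIPK3 probe sets than with LacZ probes. The summed share was 2.08-fold lower in EVEN than in LacZ (1.97 to 2.20) and 5.14-fold lower in ODD than in LacZ (4.92 to 5.38). Folds here and below are ratios of shares of all miRNA reads, and another scaling multiplies every fold of a comparison by 1 factor. With edgeR's TMM factors and DESeq2 size factors, ratios of ODD to LacZ were 2.44 and 2.73 times higher, so that the sum was 2.11-fold and 1.88-fold lower in ODD. Library totals lacking the 10 most abundant miRNAs raised these ratios 1.62 times, to a sum 3.17-fold lower in ODD. Ratios of EVEN to LacZ were 1.20 to 1.34 times higher under the 3 scalings, and those of ODD to the input 1.61 to 2.25 times higher. Most of the distance between LacZ and the input came from miR-660-5p and miR-532-5p. Without them the other 8 members took 0.672% of EVEN, 0.211% of ODD, 0.857% of LacZ and 0.921% of the input reads.

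miR-660-5p, reported in lung cancer cells as a repressor of MDM2, had 1961 CPM in EVEN, 1308 in ODD, 10585.5 in LacZ and 28493 in the input. It was the member with the most reads in the input, 10th among all miRNAs there, and was far lower in all pull-downs. Its share was 5.40-fold lower in EVEN than in LacZ (4.68 to 6.27), 8.09-fold lower in ODD than in LacZ (7.41 to 8.85) and 2.69-fold lower in LacZ than in the input (2.61 to 2.77). Against the input it was 14.5-fold lower in EVEN and 21.8-fold lower in ODD.

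miR-532-5p, reported as a repressor of RUNX3, had 5144 CPM in EVEN, 2178 in ODD, 9603 in LacZ and 18471 in the input. The order of the libraries was that of miR-660-5p. It was 1.87-fold lower in EVEN than in LacZ (1.70 to 2.05), 4.41-fold lower in ODD than in LacZ (4.10 to 4.74) and 1.92-fold lower in LacZ than in the input (1.86 to 1.99). The ODD fold was 1.805 with TMM factors and 1.62 with DESeq2 size factors, under the 2-fold threshold. Its 3p partner miR-532-3p had 2415 CPM in EVEN, 495 in ODD, 1711 in LacZ and 1629 in the input. LacZ and the input lay within their counting intervals for this arm, EVEN was the highest library and ODD the lowest. miR-532-3p was 1.41-fold higher in EVEN than in LacZ (1.21 to 1.64) and 3.46-fold lower in ODD than in LacZ (2.96 to 4.05).

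miR-188-5p, which represses neuropilin-2 in rat neurons, had 283 CPM in EVEN, 79.7 in ODD, 670 in LacZ and 1473 in the input. It followed the same order as miR-660-5p, and was 2.37-fold lower in EVEN than in LacZ (1.60 to 3.63) and 8.40-fold lower in ODD than in LacZ (5.88 to 12.4). The other arm of the same hairpin, miR-188-3p, had 566 CPM in EVEN, 14.1 in ODD, 87.0 in LacZ and 338 in the input. Here EVEN was the highest of the 4 libraries, and no counting interval of one library reached that of another. These levels rest on 56, 6, 37 and 1010 reads in the same order of libraries. The miR-188-3p share was 6.51-fold higher in EVEN than in LacZ (4.22 to 10.1) and 6.18-fold lower in ODD than in LacZ (2.59 to 17.9). LacZ was itself 3.89-fold lower than the input for this arm (2.80 to 5.55), and EVEN was 1.67-fold higher than the input (1.26 to 2.19).

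Among the 3p arms of the miR-500 group, miR-500a-3p and miR-501-3p had similar levels in the circHIPK3 pull-downs and different ones in the input. miR-500a-3p had 1162 CPM in EVEN, 507 in ODD, 2511 in LacZ and 2555 in the input. miR-501-3p had 1112 CPM in EVEN, 488 in ODD, 1415 in LacZ and 368 in the input. miR-502-3p had 616 CPM in EVEN, 232 in ODD, 797 in LacZ and 1063 in the input. For miR-500a-3p LacZ and the input could not be told apart by their intervals, and EVEN and ODD lay below both. For miR-501-3p the input was instead the lowest library, and its share was 3.02-fold higher in EVEN (2.46 to 3.68), 1.33-fold higher in ODD (1.14 to 1.54) and 3.85-fold higher in LacZ (3.48 to 4.25) than in the input.

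Since these arms and miR-500b-3p are near copies, their sum and its division are given as well. The 4 arms together took 0.305% of EVEN reads, 0.127% of ODD, 0.491% of LacZ and 0.409% of the input. miR-501-3p made up 36.4% of that sum in EVEN (31.0 to 42.1), 38.4% in ODD (34.3 to 42.7), 28.8% in LacZ (26.9 to 30.8) and 9.003% in the input (8.50 to 9.52). miR-500a-3p made up 38.1% in EVEN, 39.9% in ODD, 51.1% in LacZ and 62.5% in the input. The change in division was therefore present in the LacZ control too. The sum was 1.61-fold lower in EVEN than in LacZ (1.42 to 1.82), 3.87-fold lower in ODD than in LacZ (3.52 to 4.26) and 1.20-fold higher in LacZ than in the input (1.15 to 1.26).

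miR-362-5p, reported as a repressor of the deubiquitinase CYLD, had 566 CPM in EVEN, 284 in ODD, 1321 in LacZ and 1144 in the input. It was higher in LacZ and the input than in either circHIPK3 pull-down, 2.33-fold lower in EVEN than in LacZ (1.77 to 3.13) and 4.66-fold lower in ODD than in LacZ (3.82 to 5.71). miR-362-3p had 0 reads in EVEN, 3 reads or 7.03 CPM in ODD, 26 reads or 61.1 CPM in LacZ and 1900 reads or 636 CPM in the input. All 3 pull-downs were low for this arm, the LacZ library included. With 3 reads in place of the 0 in EVEN, miR-362-3p was 2.02-fold lower in EVEN than in LacZ. The counting interval for 0 against 26 reads began at 1.53-fold lower, under the 2-fold threshold. miR-362-3p was 8.69-fold lower in ODD than in LacZ (2.66 to 44.8) and 10.4-fold lower in LacZ than in the input (7.08 to 15.97).

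**Figure D2:**
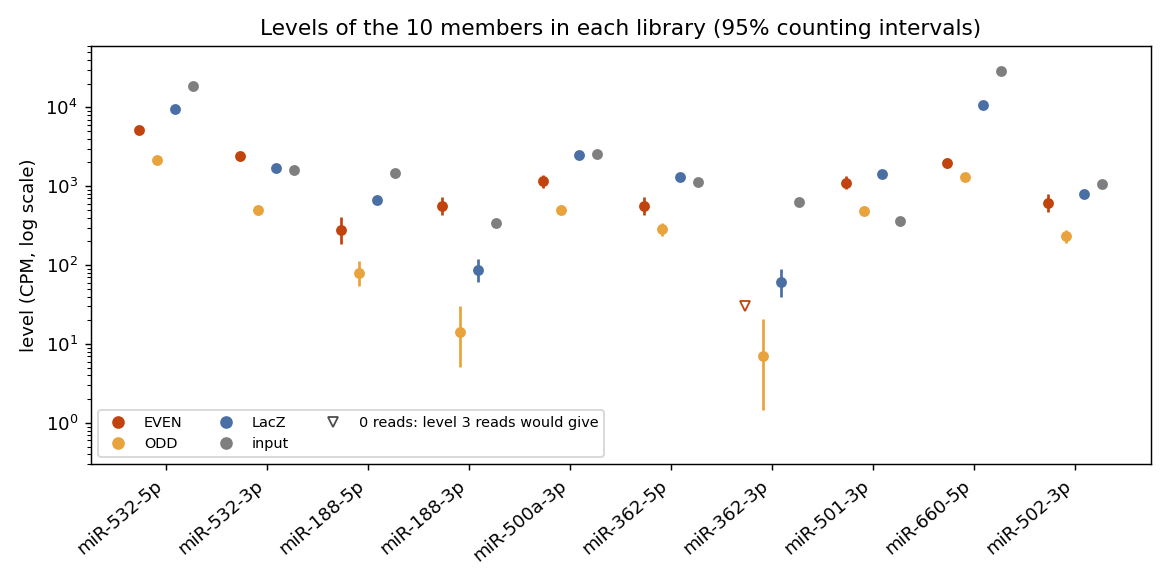
Level (CPM, log axis) of the 10 members in the EVEN, ODD, LacZ and input libraries, in the order of their hairpins on the chromosome, with bars for 95% counting intervals and an open triangle at the level of 3 reads where a library had 0. ODD is the lowest library for every member except miR-501-3p, which is lowest in the input, and miR-362-3p, where EVEN had 0 reads.

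The comparison with LacZ asks which miRNAs the circHIPK3 probes recovered beyond what control probes retain. It used log2 ratios of shares with 0.5 added to each count, for miRNAs that reached 20 reads in either library, called at 2-fold. With EVEN probes all 10 members were tested. Of them 1, miR-188-3p, was at least 2-fold higher than in LacZ, where 9.69% of all 289 tested miRNAs were, and 5 were at least 2-fold lower, where 51.2% were. These 5 were miR-660-5p, miR-188-5p, miR-362-5p, miR-362-3p and miR-500a-3p. The miR-362-3p call, from 0 reads in EVEN, is not secure: with 5 added to each count its log2 ratio was -0.53, within 2-fold. The member median log2 ratio was -1.002, or -0.96 with miR-362-3p at its bound, beside -1.06 for all tested miRNAs, so as a list the members lay near the background. Under the 3 other scalings (TMM factors, DESeq2 size factors, and totals lacking the 10 most abundant miRNAs) 1 member was higher and 2 were lower, with 36 and 118, 43 and 107, and 44 and 107 of all tested miRNAs instead of 28 and 148. miR-501-3p and miR-502-3p, at -0.34 and -0.36 here, were above 0 under the last 2 of these scalings. A member's distance from the median of all tested miRNAs is the same under every scaling. By that measure 2 members were at least 2-fold higher (miR-188-3p and miR-532-3p), where 26.3% of all tested miRNAs were, and 2 lower (miR-660-5p and miR-362-3p, the last through the 0.5 added to 0 reads), where 25.3% were.

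With ODD probes all 10 members were at least 2-fold lower than in LacZ and 0 were higher, where 70.3% of all 300 tested miRNAs were lower and 13.0% higher. The member ratios ran from -3.05 for miR-188-5p to -1.53 for miR-501-3p, with a median of -2.26 beside -1.79 for all tested miRNAs. DESeq2 size factors and TMM factors left 4 and 5 members at least 2-fold lower, with all 10 still below 0. All tested miRNAs then split into 68 higher and 96 lower and into 66 and 103, and into 55 and 160 for totals lacking the 10 most abundant, instead of 39 and 211. Relative to the median of all tested miRNAs, 3 members were at least 2-fold lower, miR-188-5p, miR-660-5p and miR-362-3p, where 23.7% of all tested miRNAs were, and 0 were higher, where 25.7% were. Both comparisons use the same LacZ library, so they are not independent of each other.

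**Figure D3:**
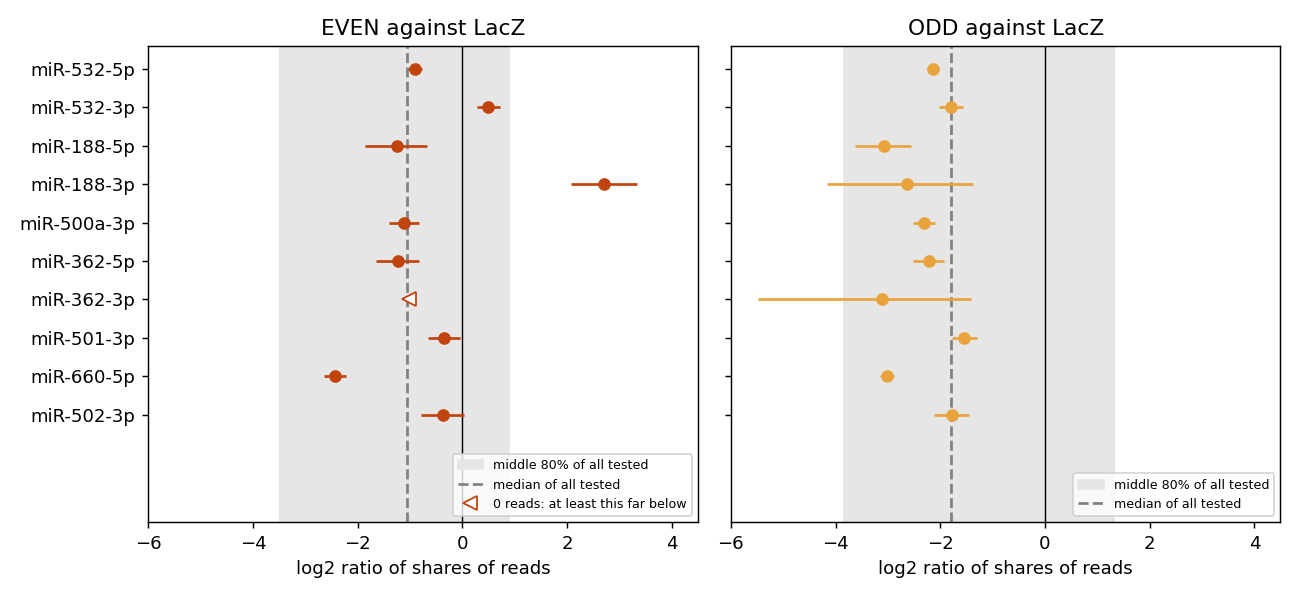
Log2 ratio of the share of reads in EVEN (left) and ODD (right) to that in LacZ for the 10 members, with 95% counting intervals, over a grey band for the middle 80% of all tested miRNAs, a dashed line at their median and an open triangle where EVEN had 0 reads. With EVEN probes miR-188-3p lies outside the band at a log2 ratio of 2.70, and with ODD probes all 10 members lie inside it and below 0.

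Setting the EVEN against the ODD library compares different probes to the same exon. miR-362-3p, with 0 and 3 reads, was not tested. Of the other 9 members, 8 were at least 2-fold higher in EVEN, where 37.9% of all 203 tested miRNAs were, and 0 were lower, where 18.2% were. The member median was 1.24 beside 0.64 for all tested miRNAs. The scaling decides much of this: TMM factors and DESeq2 size factors each left 2 members at least 2-fold higher, miR-188-3p and miR-532-3p, put miR-660-5p and miR-362-5p below 0, and gave 20 higher and 64 lower, and 19 and 64, of all tested miRNAs instead of 77 and 37. Relative to the median of all tested miRNAs 3 of the 9 members were at least 2-fold higher, miR-188-3p, miR-532-3p and miR-188-5p, and 0 lower, where 16.7% and 23.6% of all tested miRNAs were. miR-188-3p had the widest gap among the members, 40.2-fold higher in EVEN than in ODD (17.4 to 114), from 56 and 6 reads. This fold was 19.8 with TMM factors, 19.5 with DESeq2 size factors and 33.2 for totals lacking the 10 most abundant miRNAs. Next, by library totals, were miR-532-3p at 4.88-fold (4.04 to 5.90) and miR-188-5p at 3.55-fold (2.07 to 6.03), also from the upstream pair of hairpins. The remaining arm of that pair, miR-532-5p, was 2.36-fold higher in EVEN, less than the downstream miR-502-3p at 2.66-fold. The miR-362-5p value, at 1.99-fold (1.43 to 2.76) without the added 0.5 and a log2 ratio of 1.00 with it, lay at the threshold.

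LacZ against the input describes what beads and control probes retained of the lysate's miRNAs. Of the 10 members 1, miR-501-3p, was at least 2-fold higher in LacZ, where 18.1% of all 475 tested miRNAs were, and 4 were at least 2-fold lower (miR-362-3p, miR-188-3p, miR-660-5p and miR-188-5p), where 34.3% were. The member median was -0.68 beside -0.44 for all tested miRNAs. miR-362-5p and miR-532-3p, at 0.21 and 0.072, turned below 0 with TMM factors and with DESeq2 size factors, and miR-500a-3p, at -0.025, turned above 0 when totals lacked the 10 most abundant miRNAs. All tested miRNAs split into 63 higher and 246 lower with TMM factors and 108 and 127 without those 10, instead of 86 and 163.

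Against the input, EVEN had 1 member at least 2-fold higher, miR-501-3p, and 6 lower, where 18.3% and 52.2% of all 464 tested miRNAs were. The member median of -1.07 was close to the -1.06 of all tested miRNAs, 150 of which had 0 reads in 1 of the 2 libraries. Totals lacking the 10 most abundant miRNAs gave 3 members higher and 4 lower, and 123 higher and 176 lower of all tested instead of 85 and 242. ODD had 0 members higher and 9 lower, where 13.0% and 68.6% of all 468 tested miRNAs were, with a median of -2.71 beside -2.19. The exception was miR-501-3p at a log2 ratio of 0.41, which passed 2-fold under all 3 other scalings. All tested miRNAs split into 108 higher and 237 lower with DESeq2 size factors, and 102 and 243 without those 10, instead of 61 and 321.

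The make-up of the cluster's reads does not depend on the scaling of libraries. miR-660-5p supplied 14.2% of the reads of the 10 members in EVEN, 23.4% in ODD, 36.8% in LacZ and 50.7% in the input. miR-532-5p held a steadier part, 37.2% in EVEN, 38.95% in ODD, 33.4% in LacZ and 32.9% in the input. It therefore led the cluster in EVEN and ODD, while miR-660-5p led it in LacZ and the input. miR-532-3p made up 17.5% in EVEN, 8.85% in ODD, 5.95% in LacZ and 2.90% in the input, and miR-188-3p 4.09%, 0.252%, 0.302% and 0.602% in the same order. In the input the level intervals of neighbouring members overlapped only for miR-501-3p and miR-188-3p, at 368 (346 to 390) and 338 CPM (318 to 360). In EVEN they overlapped for miR-532-3p and miR-660-5p and for miR-500a-3p and miR-501-3p, among others.

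**Figure D4:**
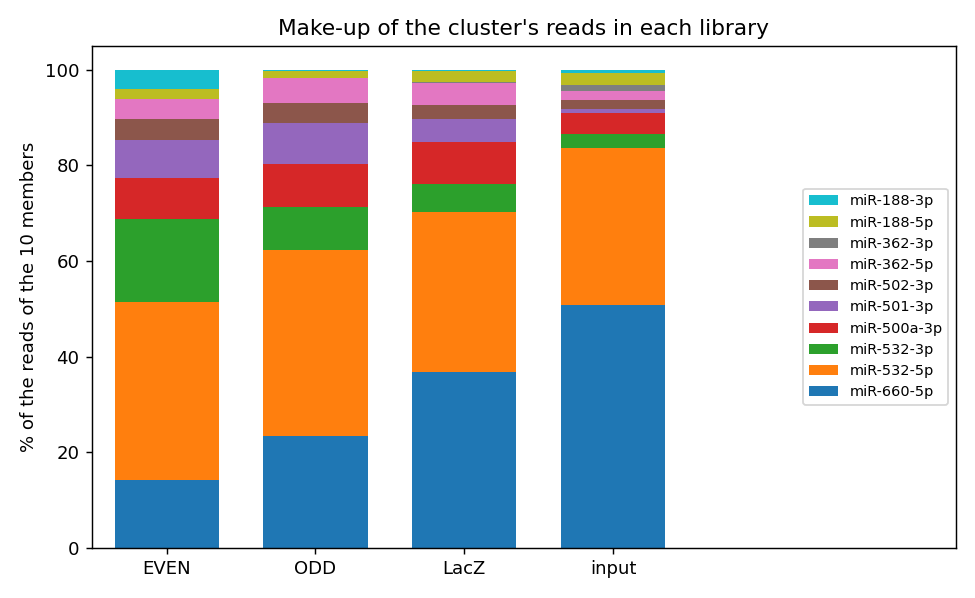
Share (%) of the reads of the 10 members that each member supplied in the EVEN, ODD, LacZ and input libraries. miR-660-5p (bottom) falls short of miR-532-5p in EVEN and ODD and exceeds it in LacZ and the input, and miR-532-3p is widest in EVEN at 17.5%.

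Reads of the 2 arms of a hairpin were set against each other within a library, which also needs no scaling. For miR-188 the 5p arm made up 33.3% of both arms in EVEN (23.4 to 44.5), 85.0% in ODD (70.2 to 94.3), 88.5% in LacZ (84.5 to 91.8) and 81.3% in the input (80.3 to 82.4). Only in EVEN did the 3p arm of miR-188 outnumber the 5p arm. For miR-532 the 5p share was 68.0% in EVEN (64.6 to 71.4), 81.5% in ODD (79.1 to 83.7), 84.9% in LacZ (83.8 to 85.9) and 91.9% in the input (91.7 to 92.1). Its EVEN interval lay below those of the other 3 libraries, as it did for miR-188, the other hairpin of the upstream pair. The 5p shares of miR-501 and miR-502 were also lowest in EVEN, but there the EVEN interval overlapped that of ODD. The miR-532 interval of the input lay above those of every pull-down, LacZ included.

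As with miR-532, but by a wider gap, the arms of miR-362 and miR-501 separated the input from all pull-downs, LacZ included. For miR-362 the 3p arm had 0 of 56 reads in EVEN, which allows a share of up to 5.36%, and 2.42% in ODD, 4.42% in LacZ and 35.7% in the input. Limits given here for 0 reads are the share that 3 reads would make, and the exact intervals reach somewhat further. The 5p share of miR-501 was 15.4% in EVEN (9.66 to 22.8), 17.1% in ODD (12.7 to 22.4), 21.2% in LacZ (18.4 to 24.3) and 46.0% in the input (43.8 to 48.2). In miR-500a and miR-502 the 3p arm led in every library, with 5p shares of 4.64% to 9.59% for miR-500a and, for miR-502, 0 of 61 reads in EVEN (up to 4.92%), 4.81% in ODD, 7.12% in LacZ and 9.12% in the input. miR-660 was nearly all 5p, with 0 of 194 reads from the 3p arm in EVEN (up to 1.55%), 0 of 558 in ODD (up to 0.538%), 0.354% in LacZ and 0.401% in the input.

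**Figure D5:**
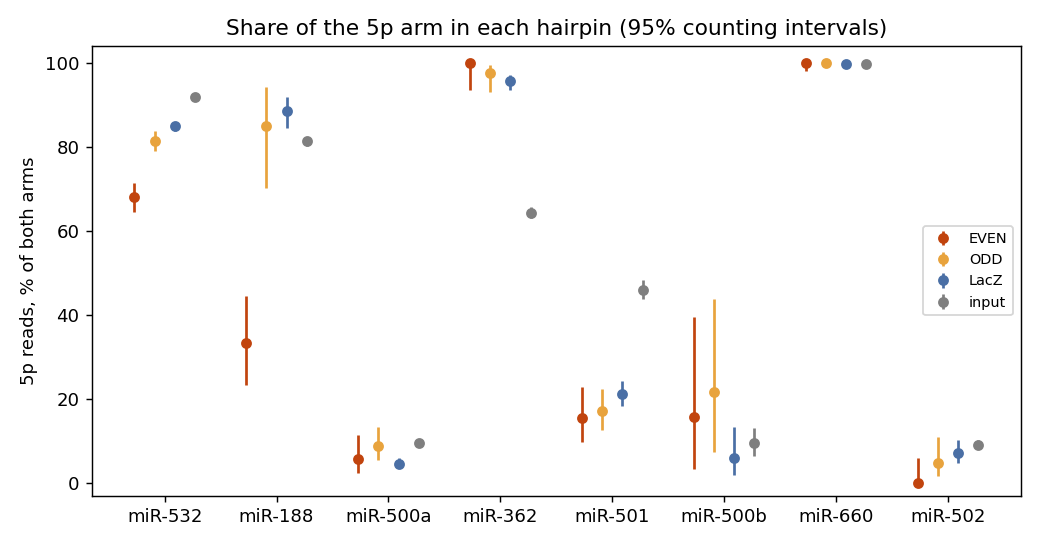
Reads of the 5p arm as a share (%) of both arms for the 8 hairpins of the cluster, in chromosomal order, in the EVEN, ODD, LacZ and input libraries with 95% counting intervals. The miR-188 value of EVEN, at 33.3%, stands below the other 3 libraries. The input stands apart for miR-362 and miR-501 and, by a narrower gap, for miR-532.

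The cluster has 6 other mature arms, miR-500a-5p, miR-500b-5p, miR-500b-3p, miR-501-5p, miR-502-5p and miR-660-3p. Not all were the lesser arm of a hairpin. In the input miR-500b-3p made up 90.5% of both arms of miR-500b, and miR-501-5p made up 46.0% of those of miR-501. Together the 6 arms took 0.0465% of EVEN reads, 0.0216% of ODD, 0.0799% of LacZ and 0.0916% of the input. Of the 4 that could be tested with EVEN probes against LacZ, 0 were at least 2-fold higher (9.69% of all tested miRNAs) and 1 was lower (51.2%). This was miR-502-5p, with 0 reads against 26. With 3 reads in place of 0 it was 2.02-fold lower, and its counting interval began at 1.53-fold lower. With ODD probes all 4 tested were at least 2-fold lower than in LacZ, where 70.3% of all tested miRNAs were. miR-501-5p had 202 CPM in EVEN, 101 in ODD, 381 in LacZ and 314 in the input, and miR-500b-3p had 162, 42.2, 186 and 99.1 CPM in the same order. miR-500b-5p lies within miR-500a-5p without a mismatch over all 18 of its bases, so its 3, 5, 5 and 31 reads in these libraries may belong to either.

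Seeds were compared for the 9 members and 2367 of the 2656 listed miRNAs with a sequence, so miR-660-5p was not included. Among these, miR-329-3p was the 1 miRNA outside the cluster that shared a seed with a member (miR-362-3p) and reached 20 reads in any library. It had 2 reads in EVEN, 0 in ODD, 7 in LacZ and 39 in the input, too few to set beside miR-362-3p in the pull-downs. miR-6866-3p, with the seed of miR-188-5p, had 0 reads in the pull-downs and 5 in the input.

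The miRNAs with the profile most like that of miR-660-5p were not members. Among 134 miRNAs with at least 20 reads in every library, the Euclidean distance between log2 profiles centred over the 4 libraries was smallest for miR-590-3p (0.22), miR-27a-3p (0.27), miR-101-3p (0.33), miR-199a-5p (0.35) and miR-186-5p (0.52). The nearest member was miR-188-5p at 1.16, 19th in order, then miR-532-5p at 1.56. miR-501-3p was the farthest of the 7 other members that could be compared, at 4.23 and 92nd in order. These distances rest on 4 libraries and describe only how reads were spread over them.

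Exon 2 of HIPK3 (chromosome 11, 33286413 to 33287511 on GRCh38, plus strand, 1099 nt) was searched as a circle for stretches complementary to the members' seeds. The heptamers searched on its plus strand, without overlaps between motifs being merged, were AAGGGAT for miR-188-5p, TGTGGGA for miR-188-3p, CAAGGAT for miR-362-5p, GGTGTGT for miR-362-3p, AGGTGCA for miR-500a-3p, GGTGCAT for miR-501-3p and miR-502-3p, AAGGCAT for miR-532-5p and GTGGGAG for miR-532-3p. None was present, for 0 of the 9 members with a sequence, beside 7.39% of 2367 listed miRNAs with a sequence. Of the 441 of these with at least 20 reads in a library, 11.3% had a heptamer. With the 6 bases that pair to bases 2 to 7, the counts were again 0 of 9 members, beside 25.2% of the listed miRNAs and 28.8% of those 441. The absence says only that these letters are not in this exon.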

How the data were processed

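Small RNA libraries from RD cells (input lysate and EVEN, ODD and LacZ pull-downs) used a QIAGEN QIAseq kit and a NovaSeq sequencer, per the labels' protocols. The deposited tables hold raw counts and CPM for each mature miRNA, and the deposited CPM equal the counts over their library totals. The genome build was GRCh38, per the submitters' processing notes. Not given in the sources used here are the trimming, aligner, miRNA annotation, multi-mapping and strand settings and whether molecular identifiers were collapsed.

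Ratios, calls and intervals (Clopper-Pearson, conditional for folds) were computed on the whole table and the members' values printed. Folds carry no added constant, and 0 reads were bounded at 3 counts. Names followed a rule: all members, the other arms of the cluster, seed sharers with at least 20 reads in a library, and the 5 nearest profiles. miR-6866-3p was added after its values were seen. The members and lists were chosen with earlier results of these data known. Alternatives were TMM (edgeR 4.0.16), size factors (DESeq2 1.42.0), library totals lacking the 10 top miRNAs, a read minimum of 1 or 100, 5 in place of 0.5 added, CPM plus 1, and a 4-fold threshold. The ratios, their counting intervals and the 2-fold calls were tested on counts simulated with known folds, known library sizes and counting error only. The other steps were not tested in this way. Python 3.11.15, pandas 2.3.3, numpy 2.4.6, scipy 1.17.1, matplotlib 3.10.9 and R 4.3.3 were used.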

Additional observations from a re-analysis of the deposited data

Results flagged for a closer look

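By library totals, 2 members lay on opposite sides of LacZ with the 2 circHIPK3 probe sets. miR-188-3p had a log2 ratio to LacZ of 2.70 with EVEN probes and -2.53 with ODD probes, with 56 reads in EVEN, 6 in ODD and 37 in LacZ. miR-532-3p had a log2 ratio of 0.50 with EVEN probes, under the 2-fold threshold, and -1.79 with ODD probes, with 239, 211 and 728 reads in the same order. Each side is 1 library and both use the same LacZ library, so the difference was not tested beyond counting error.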

How the results depend on the processing

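No paired analysis was possible because each group is 1 library, and for the same reason no replicate could be left out. The 5 alternatives that can move a ratio (the 3 scalings, 5 added to counts and CPM plus 1) gave 295 member ratios, of which 165 lay inside the counting interval of the ratio by totals and 130 outside it. The sign changed in 13, of which 11 came from 6 ratios within 2-fold, named with their comparisons, and 2 from a called one. The called one was miR-362-5p in EVEN against ODD, at -0.0203 with TMM factors and -0.0390 with DESeq2 size factors. Counts of members moved over 1.5 times in the following cases. For EVEN against LacZ, the 5 lower members became 2 with TMM factors, with size factors, without the 10 most abundant miRNAs and at 4-fold, and the 1 higher member (miR-188-3p, under the read minimum) became 0 at 100 reads. For ODD against LacZ, the 10 lower became 5 with TMM factors and 4 with size factors. For LacZ against the input, 4-fold left 0 higher and 1 lower. For EVEN against the input, 3 were higher without the 10 most abundant miRNAs, and 4-fold left 0 higher and 3 lower. For ODD against the input, 1 instead of 0 was higher with TMM factors, with size factors and without the 10 most abundant. For EVEN against ODD, the 8 higher became 2 with TMM factors, 2 with size factors, 4 without the 10 most abundant, 5 at 100 reads and 2 at 4-fold. Other member counts stayed within 1.5 times. With TMM factors the median over all tested miRNAs was -0.50 instead of -1.79 for ODD against LacZ and -0.38 instead of 0.64 for EVEN against ODD. Depth limits EVEN most, where 1 read is 10.1 CPM.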

Other observations

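The 2 members above LacZ with EVEN probes by library totals, miR-188-3p and miR-532-3p, begin alike. Their longest common stretch is CUCCCACA, from base 1 of miR-188-3p and base 2 of miR-532-3p. Of 2367 listed miRNAs with a sequence, 4 hold this stretch (0.169%), and the other two, miR-1229-3p and miR-6871-3p, had 1 and 0 reads in EVEN, 1 and 0 in ODD, 2 and 0 in LacZ and 9 and 2 in the input, too few to compare. The stretch was taken from these 2 related members after the values were seen. Both hold it for that reason, and its rarity says nothing about their levels.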
